A study of Sus scrofa with 12 samples.

Results

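Heat shock proteins and chaperones were followed across 4 groups of interstitial cells from the pig (Sus scrofa) aortic valve in culture, cells that build and keep up the matrix of the leaflet. The members are the genes whose name in the authors' gene table belongs to the HSPA, HSPB, HSPD, HSPE, HSPH, HSP90, DNAJA, DNAJB, DNAJC, CCT (with TCP1), BAG or HSF families, by a fixed name rule, which gave 69 of 22861 genes. The inducible HSP70 genes HSPA1A and HSPA1B did not match the rule and are not members. Messenger RNA was sequenced from 12 libraries, 3 biological replicates in each of 4 groups, to follow calcification of cells grown on glass in DMEM. The groups were Stage 1 (day 5), Stage 2 (day 8), Stage 3+KPT and Stage 3+DMSO. KPT, or the solvent DMSO in the control group, was given once the cultures had reached Stage 3. Growth on glass was the calcification stimulus in all 4 groups. The labels name no strain, age or genotype, do not spell out KPT, and do not say whether each replicate is its own animal. The p-values below therefore measure the spread between these cultures, which may be technical. The dose of KPT, the time of exposure and the day of the Stage 3 libraries are absent from the labels. Code names that begin with KPT are used for inhibitors of XPO1, the receptor that carries proteins out of the nucleus, and which compound was used here is not stated.

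Chaperones bind unfolded segments of other proteins and, by cycles of ATP binding and release, help them fold, cross membranes or be handed on for degradation. HSP70 proteins do so with J-domain partners (the DNAJ families) that deliver substrates and start ATP hydrolysis, and with exchange factors (HSP110 and BAG proteins) that let the bound ADP go. HSP90 acts late on kinases and steroid receptors, TRiC is a ring-shaped complex that folds actin and tubulin, and HSPD1 with HSPE1 forms the corresponding chamber in mitochondria. Small heat shock proteins hold unfolded proteins without ATP. The HSF transcription factors bind the promoters of many of these genes, and a separate pathway, the unfolded protein response, controls the chaperones of the endoplasmic reticulum (ER). Valve interstitial cells secrete large amounts of collagen, which is folded in the ER.

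All values are RPKM, reads scaled to exon length and to the library's total. A gene was tested if it had at least 1 RPKM in at least 3 of the 12 libraries, which 13046 genes did. Library totals recovered from the RPKM values ranged from 13188023 to 24724019. Recovered reads summed over genes came to 1.75 to 1.81 times these totals, for a reason that is not stated. Across genes, libraries of the same group had a Pearson r of 0.985 to 0.994, and the KPT libraries stood apart on the first principal component, with 59.4% of the variance. The 7 valve interstitial or fibroblast markers were expressed in every group, while none (0) of the 5 cardiomyocyte and 0 of the 3 epithelial markers found reached the filter. Of the markers found, 2 of 5 endothelial and 2 of 6 leukocyte genes reached it, with VWF, PTPRC and CSF1R at or near 0 RPKM. The 4 that reached it were PECAM1 (4.92 to 12.0 RPKM) and EMCN among endothelial genes, and CD14 (5.38 to 12.9 RPKM) and CD68 (1.10 to 5.58 RPKM) among leukocyte genes. The stages and treatments were taken from the labels, and no targeted gene was there to check them.

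Of the 69 members, 63 were tested. DNAJB8, DNAJB13, HSPB3, HSPB9, HSF5 and CCT6B were not, with 0 to 15 reads each over the 12 libraries together and at most 0.69 RPKM. The mean over all libraries lay under 1 RPKM for those 6 members, between 1 and 10 for 9, between 10 and 100 for 36 and above 100 for 18. No row of the table carried the names HSPA8, CCT5 or CCT6A, so the constitutive cytosolic HSP70 and 2 TRiC subunits were not analysed here. The least read member tested was DNAJC27, with 255 reads over the 12 libraries and 2 in the lowest, followed by DNAJC12 with 687.

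The members took a small share of the summed RPKM that was larger at Stage 3. HSPA1A, HSPA1B and other chaperone genes that the name rule does not take were outside this share. The 69 members together made up 0.640 to 0.653% of the summed RPKM at Stage 1, 0.587 to 0.617% at Stage 2, 0.855 to 0.886% in Stage 3+KPT and 0.739 to 0.773% in Stage 3+DMSO. The 4 ranges did not overlap. Summed over members, the mean level was 6464 ± 34.2 RPKM at Stage 1, 6180 ± 166 at Stage 2, 8328 ± 181 in Stage 3+KPT and 7611 ± 181 in Stage 3+DMSO (SD, n = 3 each). In bulk RNA, fewer cells of a type and less RNA per cell cannot be told apart.

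The 2 most abundant members were ER chaperones in every group. HSPA5, the ER HSP70 also called BiP, had the highest level of any member in each group, and HSP90B1, the ER HSP90 also called GRP94, was next. HSPA1A and HSPA1B, which are not members, had higher mean levels than HSPA5 in both Stage 3 groups, with a limit on their reads given below. HSP90AA1, the stress-inducible cytosolic HSP90, ranged from 451 to 537 RPKM over the 12 libraries. HSPB1, the small heat shock protein HSP27, ranged from 296 to 525 RPKM. Further down, HSPA9, the mitochondrial HSP70 also called mortalin, ranked 12 at Stage 1, 14 at Stage 2, 7 in Stage 3+KPT and 5 in Stage 3+DMSO. Within role groups the highest mean levels per length were those of CCT8 in TRiC (289 RPKM over all libraries), DNAJA1 (178 RPKM), DNAJB4 (135 RPKM), DNAJC7 (75.1 RPKM), BAG3 (78.5 RPKM) and HSF1 (42.2 RPKM).

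**Figure D1:**
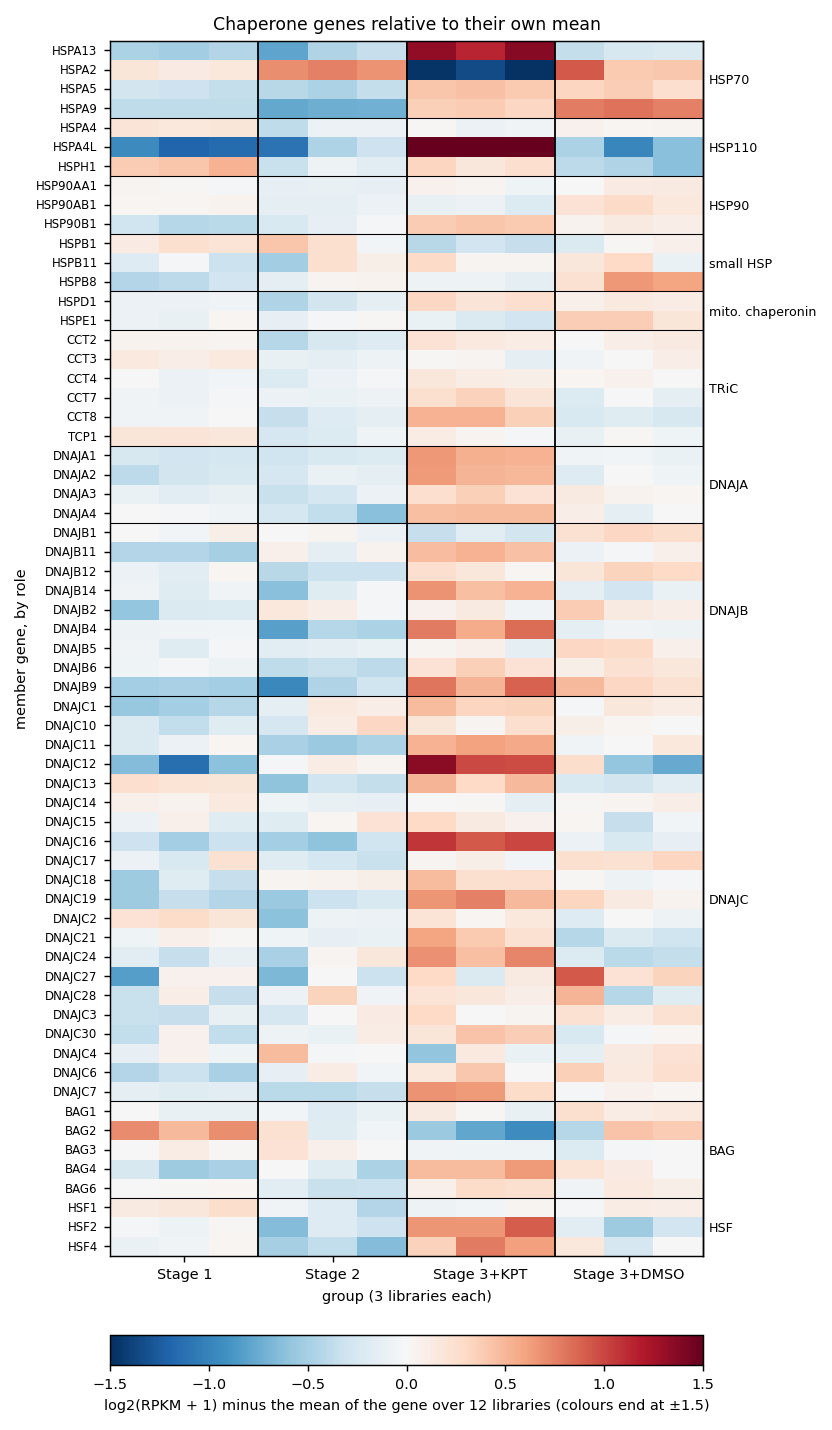
Heat map of the 63 tested members (rows, by role group) in the 12 libraries (columns, 3 per group). Colour is log2(RPKM + 1) minus the gene's own mean over the 12 libraries, cut at ±1.5: HSPA4L and HSPA13 are reddest and HSPA2 bluest in the Stage 3+KPT columns, and HSPA9 is reddest in Stage 3+DMSO.

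Stage 2 was set against Stage 1 to ask how these genes differ between day 5 and day 8. The ER and mitochondrial lists used here were drawn up after the values had been seen. Of the 45 tested members on neither list, 18 were lower and 6 higher at Stage 2. Of 10 on the ER list 1 was lower and 4 were higher, and of 8 on the mitochondrial list 3 were lower and 0 higher. Of the 63 members tested, 22 were lower and 10 higher (limma on log2(RPKM + 1), Benjamini-Hochberg adjusted p under 0.05 over all genes tested). Over all genes, 24.4% were called lower and 16.3% higher, against 34.9% and 15.9% of members. No member called changed by 2-fold or more in RPKM + 1 (0 of 63), where 1.89% of all genes were called higher and 2.38% lower by that much. Libraries of Stage 2 all lay below those of Stage 1 for 25 members and all above for 9, against 31% and 21.5% of all genes. After rescaling of the libraries by their median ratio, the split of members was 17 lower and 13 higher, against 20.6% and 19.8% of all genes. The median log2 fold change was -0.07 for members and -0.05 for all genes.

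The largest falls at Stage 2 came from several families. HSPH1, also called HSP105, an HSP110 exchange factor, had 32.9, 39.7 and 37.4 RPKM at Stage 2, against 55.1, 56.1 and 60.5 RPKM at Stage 1. Every Stage 2 library lay below every Stage 1 library (log2 fold change -0.63, SE 0.09, limma adjusted p = 0.000123). HSPA4, of the same family, had 89.7 ± 10.5 RPKM at Stage 2 and 115 ± 1.56 at Stage 1 (log2 fold change -0.36, adjusted p = 0.00218). HSPA4L, the remaining HSP110 gene, was not called, with 9.80 RPKM at Stage 2 and 6.60 at Stage 1 on average (log2 fold change 0.47, SE 0.19, adjusted p = 0.0674).

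TRiC subunits were lower at Stage 2 in 4 of the 6 tested. TCP1 had 112, 116 and 128 RPKM at Stage 2, against 151, 153 and 151 RPKM at Stage 1 (log2 fold change -0.35, SE 0.06, adjusted p = 0.000719). CCT2 and CCT3 fell by 0.34 and 0.24 on the log2 scale, and no Stage 2 library of either reached a Stage 1 library. CCT8 fell by 0.19, a call that was lost in 7 of 21 alternative settings, among them median-ratio rescaling and leaving out any Stage 1 library (adjusted p from 0.011 to 0.117 over the alternatives). CCT7 had log2 fold change -0.03 and CCT4 -0.06, neither called.

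The 3 heat shock factors tested were all called lower. HSF1, the main activator of the heat shock response, had 40.4, 36.6 and 30.6 RPKM at Stage 2, against 46.0, 47.1 and 50.5 RPKM at Stage 1. The groups did not overlap (log2 fold change -0.42, SE 0.09, adjusted p = 0.00301). HSF4, best known from the lens, had 13.8 ± 1.42 RPKM at Stage 2 and 19.5 ± 0.958 at Stage 1 (log2 fold change -0.47, adjusted p = 0.0105). HSF2, a partner of HSF1, fell by 0.36 with an adjusted p of 0.042, and that call was lost in 13 of 21 alternatives (adjusted p from 0.025 to 0.153).

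Of the J-domain genes, DNAJC13, an endosomal protein, fell to 15.1, 18.8 and 18.1 RPKM at Stage 2, against 27.96, 27.1 and 26.6 RPKM at Stage 1 (log2 fold change -0.63, adjusted p = 0.000157). DNAJB4, a cytosolic HSP40, had 72.0, 94.2 and 91.2 RPKM at Stage 2, against 121, 123 and 124 RPKM at Stage 1 (log2 fold change -0.52, adjusted p = 0.00107). Replicate 1 was the lowest Stage 2 library for both. DNAJC2, which works at the ribosome, fell by 0.49 and DNAJC11, a mitochondrial protein, by 0.41. BAG2, which restrains the chaperone-linked ubiquitin ligase CHIP, fell by 0.62, with a call that 5 of 21 alternatives lost (adjusted p from 0.0017 to 0.0852, the losses being quantile normalization and the fits without Stage 1 replicate 1 or 3 or Stage 2 replicate 2 or 3). HSPA9 had 125, 129 and 129 RPKM at Stage 2, against 164 RPKM in each of the 3 Stage 1 libraries (log2 fold change -0.36, SE 0.05, adjusted p = 8.21e-05).

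Members on the ER list made up 4 of the 10 that were higher at Stage 2. DNAJB11, also called ERdj3, a secreted BiP partner, had 87.9, 76.2 and 86.5 RPKM at Stage 2, against 61.3, 61.1 and 58.8 RPKM at Stage 1. The groups were well apart (log2 fold change 0.46, SE 0.07, adjusted p = 0.0002). DNAJC1, an ER membrane J-protein, had 51.1 ± 5.21 RPKM at Stage 2 and 34.8 ± 1.71 at Stage 1 (log2 fold change 0.54, adjusted p = 0.000334). HSP90B1 rose by 0.26 on the log2 scale, while DNAJC10, an ER disulphide reductase, was called with overlapping groups and an adjusted p of 0.0446 that 11 of 21 alternatives lost (0.0013 to 0.188). The HSPA5 level was 752 ± 28.4 RPKM at Stage 2 and 806 ± 23.0 at Stage 1 and was not called (log2 fold change -0.10, adjusted p = 0.152).

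Among members not on the ER list, HSPA2, an HSP70 known from spermatogenesis in the mouse, had 65.3, 68.0 and 64.2 RPKM at Stage 2, against 45.4, 43.6 and 44.7 RPKM at Stage 1. Every Stage 2 library was higher (log2 fold change 0.55, adjusted p = 0.00235). HSPB8, a small heat shock protein that works with BAG3 in selective autophagy, had 111, 127 and 128 RPKM at Stage 2, against 90.2, 93.7 and 101 RPKM at Stage 1 (log2 fold change 0.36, adjusted p = 0.0117). BAG3 was not called (log2 fold change 0.05, adjusted p = 0.607), nor was HSPB1 (0.01, adjusted p = 0.94). DNAJC12, a cochaperone of the aromatic amino acid hydroxylases, rose by 0.84 at a low level of 3.29 RPKM at Stage 2 and 1.42 at Stage 1, and leaving out Stage 1 replicate 2 ended its call (adjusted p = 0.0561, the highest of all alternatives). DNAJB2, DNAJC18 and DNAJC6, which is the clathrin-uncoating protein auxilin, rose by 0.42, 0.42 and 0.40. The calls of DNAJB2 and DNAJC6 were lost without Stage 1 replicate 1, with adjusted p up to 0.0653 and 0.113 over all alternatives, and that of DNAJC6 also without Stage 1 replicate 3 or Stage 2 replicate 2 or 3.

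Stage 3+DMSO was set against Stage 2 to describe the step into Stage 3 without KPT. The labels give DMSO for Stage 3+DMSO and no solvent for Stage 2 or Stage 1, so stage and solvent cannot be told apart where Stage 3+DMSO is compared with them. This comparison shares the Stage 2 libraries with the comparison above. Of 8 mitochondrial members 6 were higher at Stage 3, HSPA9 by the most, and of 10 ER members 4 were higher, among them HSPA5. Of 63 members, 29 (46%) were called higher and 1 (1.59%) lower, where 33% and 11.1% of all genes were. Every Stage 3+DMSO library lay above every Stage 2 library for 34 members and below for 4, against 37.9% and 13.2% of all genes. The median log2 fold change was 0.21 for members and 0.15 for all genes tested. Median-ratio rescaling moved the median of all genes by -0.15, and 16 members were then higher and 8 lower, against 20.1% and 19.5% of all genes. After quantile normalization the counts were 18 and 5, against 19.4% of all genes in each direction.

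HSPA9 was the member with the largest rise. It had 365, 379 and 362 RPKM in Stage 3+DMSO, against 125, 129 and 129 RPKM at Stage 2. The lowest Stage 3+DMSO library held more than the highest Stage 2 library by a wide margin, and the mean was 369 ± 9.01 RPKM in Stage 3+DMSO and 128 ± 2.29 at Stage 2 (log2 fold change 1.52, SE 0.05, limma adjusted p = 1.2e-09). Each of its 17 exons with enough reads was higher in every Stage 3+DMSO library than in any Stage 2 library, with exon log2 fold changes from 1.42 to 1.78. It was the 1 member of 63 called with a change of 2-fold or more in RPKM + 1. Over all genes, 3.65% were called by that much in that direction and 1.17% in the other.

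The mitochondrial chaperonin moved the same way by less. HSPD1 (HSP60) had 202, 212 and 206 RPKM in Stage 3+DMSO, against 139, 158 and 173 RPKM at Stage 2 (log2 fold change 0.40, SE 0.07, adjusted p = 0.000623). HSPE1 (HSP10), its lid, had 232, 233 and 204 RPKM in Stage 3+DMSO, against 164, 176 and 182 RPKM at Stage 2 (log2 fold change 0.35, adjusted p = 0.00169). Both groups of libraries were separate for each gene, and neither call was lost in any of the 21 alternatives. DNAJC19, which drives the HSP70 motor at the inner mitochondrial membrane, and DNAJC11 each rose by 0.54. DNAJA3, a mitochondrial partner of HSPA9, rose by 0.30, which rescaling reduced to 0.14 (adjusted p = 0.14, and from 0.0022 to 0.15 over all alternatives).

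**Figure D2:**
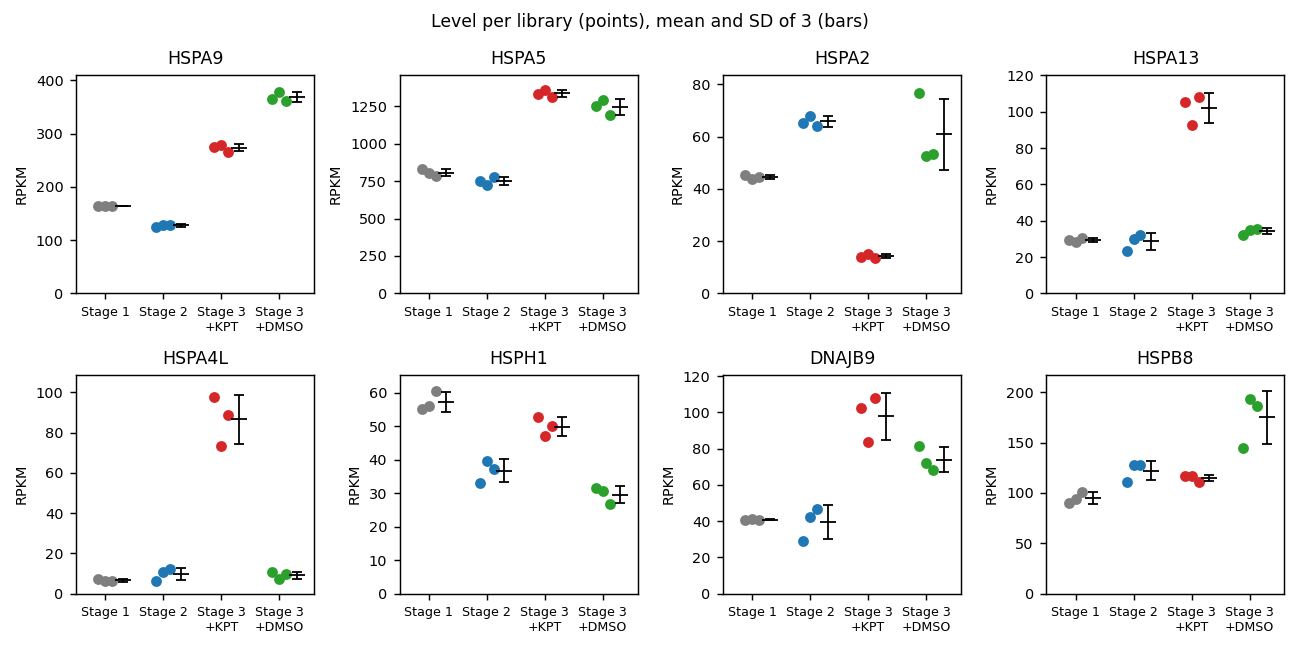
RPKM (linear axes from 0) of 8 members in each library, as points by group, with the mean and SD of 3 libraries beside them. HSPA9 and HSPA5 are high in all Stage 3 libraries, HSPA4L and HSPA13 are high in the 3 Stage 3+KPT libraries alone, and HSPA2 is at 13.6 to 15.2 RPKM in those against 52.6 to 76.6 RPKM in Stage 3+DMSO.

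Among ER members, HSPA5 had 1250, 1295 and 1193 RPKM in Stage 3+DMSO, against 753, 723 and 780 RPKM at Stage 2. The groups did not overlap at any of its 9 exons (gene log2 fold change 0.73, SE 0.05, adjusted p = 6.99e-07). DNAJB9 (ERdj4), a partner of BiP and a target of the unfolded protein response, had 81.5, 72.0 and 68.4 RPKM in Stage 3+DMSO, against 29.3, 42.4 and 46.9 RPKM at Stage 2 (log2 fold change 0.91, SE 0.15, adjusted p = 0.000318). DNAJB12, a J-protein of the ER membrane, rose by 0.63. Other ER members showed less: DNAJB11 had a log2 fold change of -0.01, DNAJC10 of -0.02, DNAJC3, an inhibitor of the kinase PERK, of 0.23, and HSPA13 of 0.26, none of them called.

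In the cytosol, HSP90AB1, the constitutive HSP90, had 333, 349 and 321 RPKM in Stage 3+DMSO, against 261, 260 and 269 RPKM at Stage 2, with no overlap (log2 fold change 0.34, SE 0.05, adjusted p = 0.000212). All 3 HSP90 genes were called higher, but HSP90AA1 and HSP90B1 rose by 0.21 and 0.22, and median-ratio rescaling took these to 0.04 and 0.05 and ended both calls. HSPB8 had 145, 194 and 186 RPKM in Stage 3+DMSO, against 111, 127 and 128 RPKM at Stage 2 (log2 fold change 0.51, adjusted p = 0.00128). DNAJB6, which keeps aggregation-prone proteins in solution, rose by 0.53 and DNAJB4 by 0.48, and DNAJB1, the main stress-inducible HSP40, rose by 0.29, which rescaling took to 0.12 without a call (adjusted p = 0.143). DNAJC7, which links HSP70 and HSP90, and DNAJC17 rose by 0.41 and 0.52. DNAJC27 rose by 0.82 at under 3 RPKM in every library, and its call was lost in 5 of 21 alternatives, including the fits without Stage 2 replicate 1 or 3 or Stage 3+DMSO replicate 1 (adjusted p from 0.012 to 0.108).

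TRiC showed 1 called subunit of 6, CCT2, with 222, 238 and 242 RPKM in Stage 3+DMSO and 164, 188 and 194 RPKM at Stage 2 (log2 fold change 0.37, adjusted p = 0.000751). The other subunits had log2 fold changes from -0.02 to 0.13, below or near the shift of all genes. CCT8 had a log2 fold change of 0.01 (adjusted p = 0.938) that became -0.16 and called lower after rescaling. HSF1 and HSF4 rose by 0.29 and 0.48, calls that ended under median-ratio rescaling and quantile normalization, and for HSF1 also without Stage 2 replicate 3 or Stage 3+DMSO replicate 2 or 3 (adjusted p from 0.0043 to 0.326). HSF2 was not called (0.06, adjusted p = 0.745). HSPH1 was the 1 member called lower, at 31.6, 30.5 and 26.7 RPKM in Stage 3+DMSO and 32.9, 39.7 and 37.4 RPKM at Stage 2 (log2 fold change -0.30, SE 0.09, adjusted p = 0.0131). Its groups were apart but close, and the call ended on leaving out Stage 2 replicate 2 (adjusted p = 0.0606) or Stage 3+DMSO replicate 3, and in a fit of these 2 groups alone (adjusted p = 0.0606 at most over the alternatives).

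Stage 3+DMSO against Stage 1, which spans both steps and shares libraries with each, gave 26 members higher (41.3%) and 6 lower (9.52%), where 30.5% and 17.3% of all genes were called. Rescaling changed this to 15 higher and 13 lower, where 22.7% and 24.2% of all genes were then called. It shifted the median of all genes by -0.10. Libraries did not overlap for 31 members that were higher and 13 that were lower (36.7% and 22.2% of all genes). By 2-fold or more in RPKM + 1, 1 member was called higher (5.12% of all genes) and 0 lower (2.28%). HSPA9 again led, with a mean of 369 ± 9.01 RPKM in Stage 3+DMSO and 164 ± 0.0616 at Stage 1 (log2 fold change 1.16, SE 0.05, adjusted p = 5.65e-09). HSPB8 followed at 175 ± 26.4 RPKM in Stage 3+DMSO and 95.0 ± 5.51 at Stage 1 (log2 fold change 0.86, adjusted p = 1.69e-05). DNAJB9, HSPA5, HSP90B1, DNAJC3 and DNAJB11 rose by 0.84, 0.63, 0.47, 0.45 and 0.45, so that 7 of 10 members placed in the ER were higher and 0 lower. DNAJC6 and DNAJC19 rose by 0.67 and 0.61, DNAJC1 by 0.58. DNAJC27 rose by 0.72, a call with an adjusted p of 0.0457 that 14 of 21 alternatives lost.

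HSPH1 had the largest fall of any member in Stage 3+DMSO against Stage 1. Its mean was 29.6 ± 2.58 RPKM in Stage 3+DMSO and 57.2 ± 2.92 at Stage 1 (log2 fold change -0.93, SE 0.09, adjusted p = 2.85e-06). DNAJC13 fell by 0.43, DNAJC21, a factor in ribosome assembly, by 0.32 and TCP1 by 0.24. The falls of DNAJC2 (0.32) and CCT8 (0.18) had adjusted p of 0.0481 and 0.0338, which leaving out any 1 of the 3 libraries of either group brought above the threshold (up to 0.133 and 0.105). No heat shock factor differed from Stage 1 by the test (0 of 3), with log2 fold changes of -0.12 for HSF1, -0.30 for HSF2 and 0.01 for HSF4. The lists of ER and mitochondrial members used here were drawn up after the values had been seen and describe these genes only. They may leave out members that work in either compartment.

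**Figure D3:**
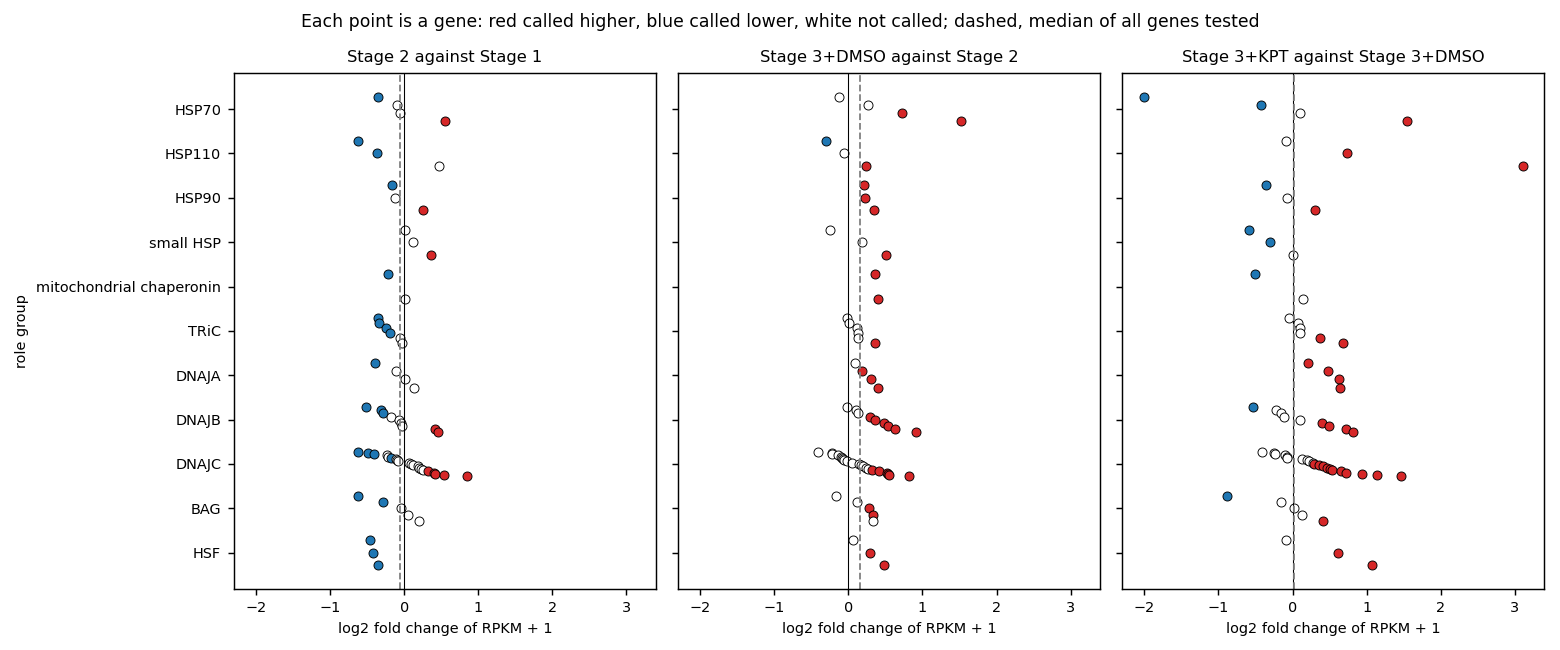
Log2 fold change (of RPKM + 1) of each tested member, by role group, in 3 comparisons; red points were called higher, blue lower and white not called, and the dashed line is the median of all genes tested. TRiC and HSF points are left of 0 at Stage 2, most points are right of 0 in Stage 3+DMSO against Stage 2, and HSPA4L (3.11) and HSPA2 (-2.004) are the extremes of Stage 3+KPT against Stage 3+DMSO.

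Stage 3+KPT was set against Stage 3+DMSO to ask how treated Stage 3 cultures differ from their solvent control. All 4 DNAJA genes, 4 of 9 DNAJB genes, 11 of 21 DNAJC genes and 2 of 3 HSP110 genes tested were higher with KPT, while HSPA2, HSPA9, HSPE1, HSP90AB1, DNAJB1, BAG2 and the small heat shock proteins HSPB1 and HSPB8 were lower. Of 63 members, 28 (44.4%) were called higher and 8 (12.7%) lower, where 30.5% and 29.5% of all genes were. Median-ratio rescaling gave 28 and 9, with the same 28 and 8 genes among them, where 29.5% and 30.3% of all genes were called. The median log2 fold change was 0.14 for members and 0.02 for all genes. Libraries did not overlap for 33 members that were higher and 10 that were lower, against 33.7% and 31.5% of all genes. At 2-fold or more in RPKM + 1, 5 members were called higher (6.15% of all genes were) and 1 lower (8.24%).

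Markers of cell identity moved in the same comparison, and also between the stages. The 7 valve interstitial or fibroblast markers summed to between 14159 and 15002 RPKM in Stage 3+KPT and between 25251 and 28166 in Stage 3+DMSO. VIM, COL1A2 and COL3A1 made up most of these sums. They and PDGFRB were lower in every Stage 3+KPT library than in any Stage 3+DMSO library. DCN, LUM and FBLN1 were higher in every Stage 3+KPT library than in any Stage 3+DMSO library, DCN at 439 to 512 RPKM in Stage 3+KPT and 337 to 385 in Stage 3+DMSO. The 3 smooth muscle markers found, which activated valve cells also express, summed to between 2052 and 2518 RPKM in Stage 3+KPT and between 8205 and 10279 in Stage 3+DMSO. The 5 endothelial markers found summed to between 5.67 and 8.30 RPKM in Stage 3+KPT and between 7.22 and 10.8 in Stage 3+DMSO. The valve interstitial or fibroblast sums were 19819 to 20742 RPKM at Stage 1 and 26959 to 27900 at Stage 2. The smooth muscle sums were 18723 to 19899 RPKM at Stage 1 and 12577 to 15201 at Stage 2. The part of these markers in the member changes of any comparison was not tested.

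HSPA4L, an HSP110 exchange factor also known as APG-1 or OSP94, known in the mouse as induced by osmotic stress, had by far the largest rise. It had 97.6, 73.3 and 89.1 RPKM in Stage 3+KPT, against 10.7, 7.23 and 9.54 RPKM in Stage 3+DMSO. The lowest KPT library exceeded the highest DMSO library severalfold, and the means were 86.6 ± 12.3 RPKM in Stage 3+KPT and 9.17 ± 1.78 in Stage 3+DMSO (log2 fold change 3.11, SE 0.19, limma adjusted p = 2.55e-08). All 19 exons were separate between the groups, with exon log2 fold changes from 2.25 to 3.94 and a median of 3.16. The other 2 HSP110 genes differed from it: HSPH1 had 52.7, 47.1 and 49.9 RPKM in Stage 3+KPT, against 31.6, 30.5 and 26.7 RPKM in Stage 3+DMSO (log2 fold change 0.74, SE 0.09, adjusted p = 9.56e-06), and HSPA4 was not called (-0.08, adjusted p = 0.355). HSPH1 was higher at 18 of its 19 exons. Exons of HSPA4 were mixed, with 6 of 19 higher and 8 lower in every KPT library (exon log2 fold changes from -0.54 to 0.63). Within a library, HSPA4L stood at 0.767 to 0.945 of the RPKM of HSPA4 in Stage 3+KPT and at 0.0697 to 0.101 of it in Stage 3+DMSO.

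The 4 HSP70 members went different ways. HSPA13, an atypical HSP70 of the ER that lacks the usual substrate-binding domain, had 105, 92.8 and 108 RPKM in Stage 3+KPT, against 32.2, 35.0 and 35.7 RPKM in Stage 3+DMSO. The groups were far apart (log2 fold change 1.55, SE 0.10, adjusted p = 5.56e-08), at each of its 5 exons. HSPA2 had 13.8, 15.2 and 13.6 RPKM in Stage 3+KPT, against 76.6, 52.6 and 53.4 RPKM in Stage 3+DMSO (log2 fold change -2.004, SE 0.12, adjusted p = 1.36e-08), the largest fall of any member. The KPT level also lay below the 43.6 to 45.4 RPKM of the Stage 1 libraries. HSPA9 had 276, 279 and 266 RPKM in Stage 3+KPT, against 365, 379 and 362 RPKM in Stage 3+DMSO (log2 fold change -0.43, SE 0.05, adjusted p = 4.64e-06), which left it above every Stage 1 and Stage 2 library. HSPA5 was not called, at 1336 ± 23.7 RPKM in Stage 3+KPT and 1246 ± 51.0 in Stage 3+DMSO (log2 fold change 0.10, SE 0.05, adjusted p = 0.115).

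HSP90 genes also parted. HSP90B1 of the ER had 1013, 1042 and 1025 RPKM in Stage 3+KPT, against 810, 850.5 and 835 RPKM in Stage 3+DMSO (log2 fold change 0.30, SE 0.06, adjusted p = 0.000789). HSP90AB1 of the cytosol had 266, 269.5 and 248 RPKM in Stage 3+KPT, against 333, 349 and 321 RPKM in Stage 3+DMSO (log2 fold change -0.36, SE 0.05, adjusted p = 6.97e-05). HSP90AA1 was not called (-0.07, adjusted p = 0.251). The ratio of HSP90B1 to HSP90AB1 within a library was 3.81 to 4.14 in Stage 3+KPT and 2.43 to 2.60 in Stage 3+DMSO.

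The 2 mitochondrial chaperonin genes, whose products assemble together, separated with KPT. HSPE1 had 168, 154 and 147 RPKM in Stage 3+KPT, against 232, 233 and 204 RPKM in Stage 3+DMSO, with no overlap (log2 fold change -0.51, SE 0.07, adjusted p = 5.57e-05). HSPD1 had 238, 219 and 227 RPKM in Stage 3+KPT, against 202, 212 and 206 RPKM in Stage 3+DMSO, and was not called (log2 fold change 0.14, SE 0.07, adjusted p = 0.101). The ratio of HSPE1 to HSPD1 was 0.648 to 0.706 in Stage 3+KPT and 0.992 to 1.15 in Stage 3+DMSO. The files place these genes on chromosome 15 on opposite strands, with their facing ends 758 bases apart, in a build that is not given. Of 3 HSPE1 exons with enough reads, 2 were lower in every KPT library.

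TRiC did not move as a unit either. CCT8 had 408, 408 and 364 RPKM in Stage 3+KPT, against 242, 249 and 240 RPKM in Stage 3+DMSO (log2 fold change 0.69, SE 0.06, adjusted p = 1.35e-06), at all 15 exons. CCT7 had 331, 357 and 321 RPKM in Stage 3+KPT, against 243, 279 and 256 RPKM in Stage 3+DMSO (log2 fold change 0.38, adjusted p = 0.000143). TCP1, CCT2, CCT3 and CCT4 were not called, with log2 fold changes from -0.04 to 0.10. CCT8 stood at 1.56 to 1.58 of the RPKM of CCT3 in Stage 3+KPT and at 0.881 to 0.981 in Stage 3+DMSO. The 4 ratios given here were picked after the values had been seen. Over these pairs and the 4 comparisons 16 ratio differences were tested by a two-sided exact permutation test, and each of the 4 between Stage 3+KPT and Stage 3+DMSO reached p = 0.1, the smallest that 3 against 3 libraries allow (adjusted p = 0.178).

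**Figure D4:**
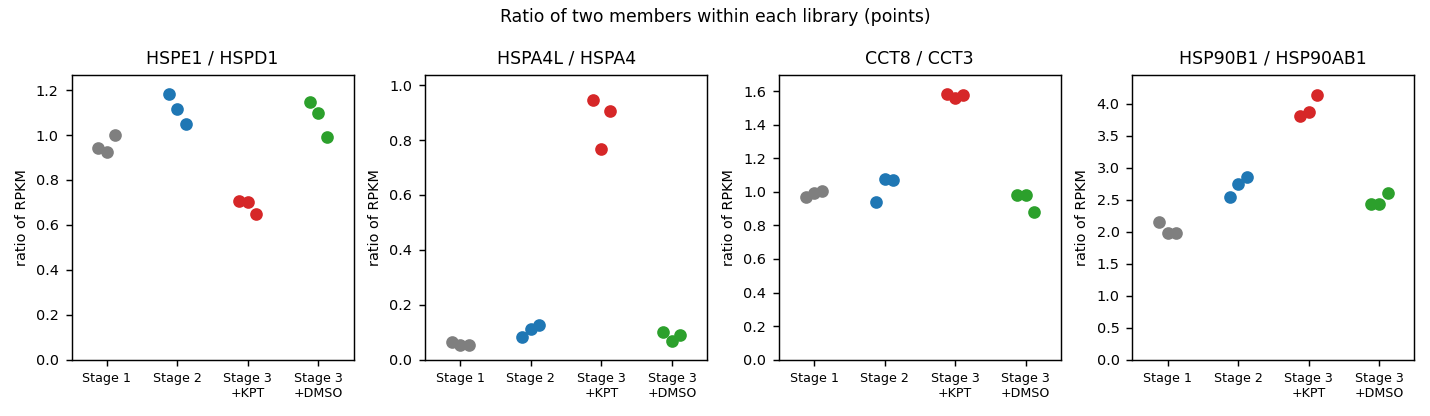
Ratio of the RPKM of 2 members within each library (points, linear axes from 0), by group, for 4 pairs. The Stage 3+KPT points lie apart from the other groups: HSPE1 to HSPD1 at 0.648 to 0.706, HSPA4L to HSPA4 at 0.767 to 0.945, CCT8 to CCT3 at 1.56 to 1.58 and HSP90B1 to HSP90AB1 at 3.81 to 4.14.

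Many J-domain genes were higher with KPT. DNAJA1, a cytosolic HSP40, had 273, 252 and 248 RPKM in Stage 3+KPT, against 167, 168 and 162 RPKM in Stage 3+DMSO (log2 fold change 0.64, SE 0.05, adjusted p = 4.24e-07). DNAJA2 and DNAJA4 rose by 0.63 and 0.48, with no overlap of libraries. DNAJA3 rose by 0.21, a call lost under quantile normalization and without Stage 3+DMSO replicate 2 or 3 or Stage 3+KPT replicate 1 or 2 (adjusted p from 0.017 to 0.116 over the alternatives).

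Of 9 DNAJB genes tested, 4 were higher and 1 lower. DNAJB4 had 220, 188 and 228 RPKM in Stage 3+KPT, against 115, 123 and 121 RPKM in Stage 3+DMSO (log2 fold change 0.82, SE 0.10, adjusted p = 1.06e-05). DNAJB1 went the other way, with 71.7, 80.6 and 75.2 RPKM in Stage 3+KPT, against 107, 113 and 109 RPKM in Stage 3+DMSO (log2 fold change -0.53, SE 0.06, adjusted p = 9.4e-06). For each of these 2 cytosolic HSP40 genes the libraries of the groups did not overlap. DNAJB14, of the ER membrane, and DNAJB11 rose by 0.73 and 0.49. DNAJB9 rose by 0.40, and its call was lost without any of 4 libraries, Stage 3+DMSO replicates 2 and 3 and Stage 3+KPT replicates 1 and 3 (adjusted p from 0.0034 to 0.116).

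Of 21 DNAJC genes, 11 were higher and 0 lower. DNAJC12 had 9.61, 7.26 and 7.19 RPKM in Stage 3+KPT, against 3.97, 1.77 and 1.45 RPKM in Stage 3+DMSO (log2 fold change 1.47, SE 0.23, adjusted p = 0.000145). DNAJC16 had 17.7, 15.8 and 16.9 RPKM in Stage 3+KPT, against 7.41, 6.60 and 7.17 RPKM in Stage 3+DMSO (log2 fold change 1.14, SE 0.10, adjusted p = 9.41e-07). It was higher at all 14 exons, and neither of these genes had overlapping groups. DNAJC24, which acts in diphthamide synthesis, rose by 0.94, DNAJC21 by 0.72 and DNAJC13 by 0.65, with adjusted p of 0.000167, 2.43e-05 and 3.6e-05. DNAJC11, DNAJC7 and DNAJC19 rose by 0.53, 0.50 and 0.47. DNAJC3 was not called (-0.07, adjusted p = 0.568).

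Among the heat shock factors, HSF2 had 16.6, 16.6 and 19.9 RPKM in Stage 3+KPT, against 8.91, 6.71 and 8.11 RPKM in Stage 3+DMSO. The KPT libraries were higher at all 12 exons (gene log2 fold change 1.07, SE 0.13, adjusted p = 1.4e-05). HSF4 had 25.6, 35.2 and 31.3 RPKM in Stage 3+KPT, against 22.4, 16.7 and 20.03 RPKM in Stage 3+DMSO (log2 fold change 0.61, adjusted p = 0.00103). HSF1 was not called, at 41.1 ± 1.80 RPKM in Stage 3+KPT and 43.8 ± 2.18 in Stage 3+DMSO (log2 fold change -0.09, adjusted p = 0.412).

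HSPB8 had 116, 117 and 111 RPKM in Stage 3+KPT, against 145, 194 and 186 RPKM in Stage 3+DMSO (log2 fold change -0.59, SE 0.10, adjusted p = 0.00021). Its partner BAG3 was not called (0.02, adjusted p = 0.846). HSPB1 had 296, 324 and 310 RPKM in Stage 3+KPT, against 338, 398 and 415 RPKM in Stage 3+DMSO (log2 fold change -0.30, adjusted p = 0.0231), a call that was lost without Stage 3+DMSO replicate 2 or 3 or Stage 3+KPT replicate 1 or 3 (up to 0.0896). BAG2 had 10.3, 8.62 and 7.60 RPKM in Stage 3+KPT, against 11.3, 21.3 and 20.5 RPKM in Stage 3+DMSO. Replicate 1 of Stage 3+DMSO lay close to the KPT libraries, and the groups were still separate (log2 fold change -0.89, SE 0.20, adjusted p = 0.00183).

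Other genes of the folding network, from 6 lists that hold no member, gave the following counts in the same fits. Of all 13046 genes tested, 30.5% were called higher and 29.5% lower in Stage 3+KPT against Stage 3+DMSO, 33% and 11.1% in Stage 3+DMSO against Stage 2, 30.5% and 17.3% in Stage 3+DMSO against Stage 1, and 16.3% and 24.4% at Stage 2 against Stage 1. Of 15 cochaperones of HSP90 and HSP70, 5 were higher and 1 lower in Stage 3+KPT against Stage 3+DMSO, 7 and 0 in Stage 3+DMSO against Stage 2, 3 and 3 in Stage 3+DMSO against Stage 1, and 0 and 4 at Stage 2 against Stage 1. FKBP4, an HSP90 cochaperone for steroid receptors, had 96.7 ± 6.64 RPKM in Stage 3+KPT and 49.9 ± 5.56 in Stage 3+DMSO (log2 fold change 0.94, adjusted p = 7.04e-07), while FKBP5, of the same family, fell by 0.61. FKBP4 also had the largest rise of the list at Stage 3+DMSO against Stage 2 (0.44), PPID against Stage 1 (0.39), and the largest falls were those of HSPBP1 at Stage 2 (-0.38) and of UNC45A at Stage 3+DMSO against Stage 1 (-0.34).

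Of 14 ER folding genes outside the chaperone families, 8 were higher and 4 lower with KPT, 3 and 2 in Stage 3+DMSO against Stage 2, 9 and 2 against Stage 1, and 8 and 1 at Stage 2 against Stage 1. With KPT, SDF2L1, which works with BiP and DNAJB11, rose by 1.11, and SERPINH1, the collagen chaperone HSP47, had 904 ± 58.4 RPKM in Stage 3+KPT and 2532 ± 215 in Stage 3+DMSO (log2 fold change -1.48, adjusted p = 1.85e-09). CANX, the lectin chaperone calnexin, led the rises in Stage 3+DMSO against Stage 2 (0.42) and ERO1A, an oxidase for disulphide bonds, the falls there (-0.89) and against Stage 1 (-0.88). SDF2L1 rose by 0.77 in Stage 3+DMSO against Stage 1. SIL1, the exchange factor of BiP, rose by 0.54 at Stage 2, where MANF fell by 0.23.

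Of the 5 tested regulators of the unfolded protein response, 0 were higher and 2 lower with KPT, 4 and 0 in Stage 3+DMSO against Stage 2, 3 and 0 against Stage 1, and 3 and 2 at Stage 2 against Stage 1. XBP1, a transcription factor that activates ER chaperone genes, had 202 ± 16.7 RPKM in Stage 3+KPT and 373 ± 16.6 in Stage 3+DMSO (log2 fold change -0.88, adjusted p = 1.27e-07). ERN1, the kinase and nuclease that splices the XBP1 messenger RNA, had 8.997 ± 0.555 RPKM in Stage 3+DMSO and 4.32 ± 0.364 at Stage 2 (log2 fold change 0.91) and fell by 0.68 at Stage 2 against Stage 1. ATF6 rose by 0.98 in Stage 3+DMSO against Stage 1, and XBP1 and ATF6 each rose by 0.23 at Stage 2.

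All 6 prefoldin genes, which hand actin and tubulin to TRiC, were tested, and 5 were higher and 0 lower with KPT, led by PFDN2 (log2 fold change 0.75, adjusted p = 1.22e-06). In Stage 3+DMSO 2 were higher than at Stage 2 and 3 than at Stage 1, PFDN2 rising by 0.27 and 0.36, and 0 changed at Stage 2 against Stage 1 by limma. Of 5 mitochondrial chaperones and proteases, 2 were higher and 1 lower with KPT, where CLPX rose by 0.40 and GRPEL2, an exchange factor of HSPA9, fell by 0.76. The protease LONP1 was the 1 of these called in Stage 3+DMSO against Stage 2 (0.29) and at Stage 2 against Stage 1 (-0.22), and 0 were called in Stage 3+DMSO against Stage 1.

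Of 5 other heat-inducible genes, 0 were higher and 1 lower with KPT, 4 and 1 in Stage 3+DMSO against Stage 2, 2 and 1 against Stage 1, and 3 and 2 at Stage 2 against Stage 1. CRYAB, the small heat shock protein alpha B-crystallin, had 379 ± 54.9 RPKM in Stage 3+DMSO and 1047 ± 69.7 at Stage 2 (log2 fold change -1.47, adjusted p = 3.53e-07). It rose by 0.67 at Stage 2 against Stage 1, and it fell by 0.28 with KPT and by 0.80 in Stage 3+DMSO against Stage 1. The inducible HSP70 genes HSPA1A and HSPA1B had 1878 ± 120 and 2265 ± 149 RPKM in Stage 3+KPT, against 1668 ± 155 and 2015 ± 198 in Stage 3+DMSO, and were not called (adjusted p = 0.0517 and 0.0622). They are near-identical copies whose reads the authors' counting could have split either way, so each value is uncertain, and the fall of HSPA1A by 0.35 at Stage 2 against Stage 1 is subject to the same limit.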

How the data were processed

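The authors deposited RPKM values for genes and exons of 12 libraries made with a stranded poly(A) kit. The aligner was TopHat2 2.1.0, as the submitters' processing notes name it. What counted the reads, whether by strand, and against which build and annotation is not stated, so reads of overlapping genes may be shared. Deposited RPKM values times exon length and a whole-number library total gave whole reads, within 0.01 read, for 100% of values. These recovered reads gave the depth and served an added count-based fit. Intervals were not computed from them.

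Values of log2(RPKM + 1) were fitted with limma 3.58.1 under R 4.3.3, with all 12 libraries in one fit, a coefficient per group and an expression trend. Fold changes on this scale, which the 2-fold counts also use, understate those of low genes. Genes with at least 1 RPKM in at least 3 libraries were tested (13046), and an adjusted p (Benjamini-Hochberg over those genes) under 0.05 made a call. The script was tested on simulated data. Values after ± are SDs of the 3 libraries of a group, and each SE is named as such. Ratios were compared by exact permutation in SciPy 1.17.1. Exons counted had at least 20 reads over the libraries of both groups compared.

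Named members are up to 8 called members with the largest rise and 8 with the largest fall per comparison, the most abundant of each role group and a fixed panel. From the lists of other folding genes, the largest called rise and fall are named, with a few further genes chosen after their values were seen. A gene of these lists that the rule takes is not reported here. The members and lists were chosen with earlier results of these data known. There were 21 alternatives: a pseudocount of 0.1 or 0.5, unfiltered genes, a minimum of 5 RPKM, median-ratio rescaling, quantile normalization, the 2 groups alone, limma-voom on recovered reads, the replicate number as a block, and each library left out in turn.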

Additional observations from a re-analysis of the deposited data

How the results depend on the processing

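The counts of members called kept within 1.5 times of those reported for Stage 3+KPT against Stage 3+DMSO and for Stage 2 against Stage 1 under all 21 alternatives. In Stage 3+DMSO against Stage 2, the 29 members called higher became 16 under median-ratio rescaling, all among the 29, and 18 under quantile normalization, and the 1 called lower became 8, 5, 0 in a fit of the 2 groups alone and 2 under limma-voom on recovered reads, with a range of 0 to 3 when a library was left out. The 0 counts came without Stage 2 replicate 2 and without Stage 3+DMSO replicate 3. In Stage 3+DMSO against Stage 1, the 26 higher became 15 under rescaling, and the 6 lower became 13 under rescaling and 11 under quantile normalization, with a range of 4 to 10 over left-out libraries, the highest without Stage 2 replicate 1, which the contrast reaches only through the shared estimate of the spread. Rescaling moved the median of all genes by -0.15 and -0.10 in these comparisons, by 0.05 at Stage 2 against Stage 1 and by -0.02 with KPT. The change of CCT8 in Stage 3+DMSO against Stage 2 turned to -0.16 under rescaling (adjusted p = 0.0412), and the cause was not tested. Called in every alternative were 24 of 28 higher and 7 of 8 lower members with KPT, 15 of 29 and 0 of 1 in Stage 3+DMSO against Stage 2, 14 of 26 and 4 of 6 against Stage 1, and 6 of 10 and 15 of 22 at Stage 2 against Stage 1. The labels do not say whether replicate numbers pair the libraries. The deviations of same-numbered libraries correlated with r from -0.071 to 0.075. With 3 libraries per group, this cannot decide whether same-numbered libraries share an animal or a day. With a replicate block the counts of higher and lower members were 27 and 8 with KPT, 30 and 1, 23 and 5, and 10 and 20 in the comparisons in the order just given. Depth limits the members under 3 RPKM, such as DNAJC27, more than the rest.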

Other observations

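Beyond the 69 members, 6 genes without a name in the authors' table take a name of the same families from a table of gene IDs, and 4 of them were expressed highly enough to be tested. They were added after the data had been seen. HSPB6, the small heat shock protein HSP20 of muscle, had 125 ± 11.2 RPKM in Stage 3+KPT and 262 ± 7.66 in Stage 3+DMSO (log2 fold change -1.06, limma adjusted p = 6.18e-08). It also stood at 211 ± 15.9 RPKM at Stage 2 and 120 ± 2.27 at Stage 1 (log2 fold change 0.80, adjusted p = 5.6e-06). DNAJC9, a histone chaperone and J-domain protein, had 5.73 ± 0.115 RPKM in Stage 3+KPT and 10.7 ± 1.81 in Stage 3+DMSO (log2 fold change -0.79, adjusted p = 0.000242), the opposite direction to the 11 called DNAJC members. HSPA14, an HSP70 found at the ribosome, had 63.7 ± 3.41 RPKM in Stage 3+KPT and 45.9 ± 1.68 in Stage 3+DMSO (log2 fold change 0.46, adjusted p = 0.000555). DNAJC25 was not called in any of the 4 comparisons (adjusted p from 0.16 to 0.873). With these genes counted as members, 29 were higher and 10 lower in Stage 3+KPT against Stage 3+DMSO, 31 and 1 in Stage 3+DMSO against Stage 2, 28 and 6 against Stage 1, and 11 and 22 at Stage 2 against Stage 1.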
